A study of Mus musculus with 12 samples.

Results

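The glucocorticoid receptor, encoded by Nr3c1, and the mRNAs of genes known to be induced through it were followed in 3T3-L1 preadipocytes before and after hormonal induction of adipogenesis. The members were chosen by name, as every non-control probe whose transcript accession belonged to Nr3c1, Tsc22d3, Fkbp5, Sgk1, Zbtb16, Errfi1, Angptl4, Ddit4, Glul or Pdk4. 17 probes of 9 genes were found among the 41174 non-control probes of the array, which name 18217 genes. Nr3c1 had 4 probes, Tsc22d3 and Fkbp5 had 3 each, Glul had 2, and Sgk1, Errfi1, Angptl4, Ddit4 and Pdk4 had 1 each. No probe was matched to Zbtb16, which was not analysed here.

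3T3-L1 is a mouse embryonic fibroblast line that can be turned into adipocytes. Cells of the 0 h groups were confluent, in medium with 10% newborn bovine serum, and had received no hormones. Cells of the 6 h groups had spent 6 h in medium with 10% fetal bovine serum, 0.5 mM isobutylmethylxanthine (IBMX, a phosphodiesterase inhibitor that raises cAMP), 1 µM dexamethasone (a synthetic ligand of the glucocorticoid receptor) and 5 µg/ml insulin. The 3 agents and the kind of serum changed together, so the part of dexamethasone cannot be told apart from that of the others. At each time the lysate was spun through a sucrose gradient, and the lighter fractions were pooled as non-polysomal (np) RNA and the heavier ones as polysomal (p) RNA, which carries several ribosomes per mRNA. Each of the 4 groups (0 h np, 0 h p, 6 h np and 6 h p) was measured on 3 one-color arrays, 1 for each of 3 biological replicates.

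The receptor rests in the cytoplasm in a complex with Hsp90 and its cochaperones. Once it binds ligand it enters the nucleus, where it binds DNA as a dimer at glucocorticoid response elements and raises or lowers transcription of nearby genes. Dexamethasone is a standard component of the adipogenic mixture, and the receptor works in the first hours of adipogenesis beside the early C/EBP factors. Ligand is known to lower the receptor's own mRNA in many cell types, and Tsc22d3 and Fkbp5 are commonly used readouts of its activity.

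Between 55.7% and 60.8% of the non-control probes lay well above background on each array. The preadipocyte label was checked against its markers: all 16 probes of 9 fibroblast and preadipocyte genes were well above background on all 12 arrays, against 6 of 9 adipocyte probes, 2 of 10 macrophage probes and none of the 3 epithelial or of the 3 endothelial ones. The summed adipocyte markers were also higher at 6 h in polysomal RNA (17.33 to 17.39, log2) than at 0 h (16.35 to 16.60), as were the preadipocyte ones (20.22 to 20.24 against 19.57 to 19.68). The sums were computed with the main scaling only. The median polysomal change of the adipocyte probes was 0.89 with it and -0.06 with quantile normalization. For the preadipocyte probes these medians were 0.39 and -0.54, so both depend on the scaling. In non-polysomal RNA the preadipocyte sum was lower at 6 h (17.52 to 17.57) than at 0 h (18.09 to 18.17). The macrophage sum there was higher at 6 h (7.14 to 7.43) than at 0 h (6.25 to 6.84). In polysomal RNA the macrophage sum was 7.30 to 7.42 at 6 h, within its range of 5.85 to 8.01 at 0 h. The endothelial sum was 2.40 to 2.82 at 0 h and 5.04 to 5.61 at 6 h in polysomal RNA, with Cdh5 at least 3.25-fold higher at 6 h. In 0 h non-polysomal RNA that sum ran from 2.46 to 5.89, so the arrays there spread across the 6 h polysomal range. The polysomal change of a Cdh5 probe ran from 0.82 to 4.53 (log2) over the scalings. The part of these markers in the results was not tested. Arrays were scaled by 10 spike-in transcripts that had been added per amount of RNA, so a level refers to the RNA of its own pool and not to a cell, and fewer cells with an mRNA cannot be told apart from less of it per cell. The 5 dimmer spike-ins were 0.76 to 0.91 lower (log2) on the 6 h polysomal arrays than on the others, and the 5 brighter ones 0.019 to 0.28 lower. The dimmer ones had mean log2 signals of 7.82 to 16.80 and the brighter ones of 18.30 to 19.06. The highest member signal on any array was 16.47, for Angptl4, below all of the brighter ones. Which spike-ins suit the members better was not tested. This spread between spike-ins bears on every value that compares the 6 h polysomal arrays with other arrays.

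The receptor's binding site is a palindrome of AGAACA and TGTTCT with 3 bases between them. Both half-sites were searched in promoter windows of RefSeq (build GRCm38.p6), which run from 250 bases before to 50 bases after a transcript start. 7 of the 10 genes had windows there, 15 in all. A half-site (AGAACA or TGTTCT, which are each other's reverse complement) occurred in 4 of these 15 windows, or 26.7%, against 19% of all 32851 windows. The whole palindrome, whose windows also count for the half-site, occurred in 3 of all the windows, and 1 of those 3 belongs to Sgk1. A stretch of the Sgk1 window is shown because it carries the palindrome, and a stretch of a Tsc22d3 window because Tsc22d3 had the largest difference between the polysomal and the non-polysomal change among the members. Both lie before the start and are written 5′ to 3′ on the gene's strand, with the half-sites in capitals. The Sgk1 stretch is chr10:21993640-21993759 (plus strand) and the Tsc22d3 stretch is chrX:140600598-140600717 (minus strand).
Sgk1: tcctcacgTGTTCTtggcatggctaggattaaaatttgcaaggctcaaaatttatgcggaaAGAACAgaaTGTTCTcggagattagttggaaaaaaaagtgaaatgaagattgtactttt
Tsc22d3: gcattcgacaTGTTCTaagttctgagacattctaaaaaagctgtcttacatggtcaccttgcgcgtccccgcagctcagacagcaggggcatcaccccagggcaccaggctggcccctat
The other half-sites lay in a pair of further Sgk1 windows. The remaining windows of Sgk1 and of Tsc22d3 held none. The windows of Fkbp5, Errfi1, Ddit4, Glul and Pdk4 held none of these letters. A match of letters is no evidence of binding, and the arrays do not measure it.

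The first comparison asked how the members changed between 0 h and 6 h in polysomal RNA. A probe was called at an adjusted p below 0.05 with a log2 difference above 1 or below -1. Of the 17 member probes 11 rose and 5 fell, where 19.2% of all probes rose and 5.01% fell. The median over the 17 probes was 2.91 (log2), against 0.54 over all probes. A gene with several probes counts more than once in it. With the probes of a gene averaged, the middle of the 9 genes was Sgk1, at 1.91. In non-polysomal RNA 10 member probes rose and 6 fell, where 8.09% of all probes rose and 8.14% fell. The medians were 1.55 for the member probes and 0.04 for all probes, and the middle gene was Tsc22d3, at 1.61. The genes that rose in both fractions were Tsc22d3, Fkbp5, Sgk1, Errfi1 and Glul, and those that fell in both were Nr3c1, Angptl4 and Pdk4.

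**Figure D1:**
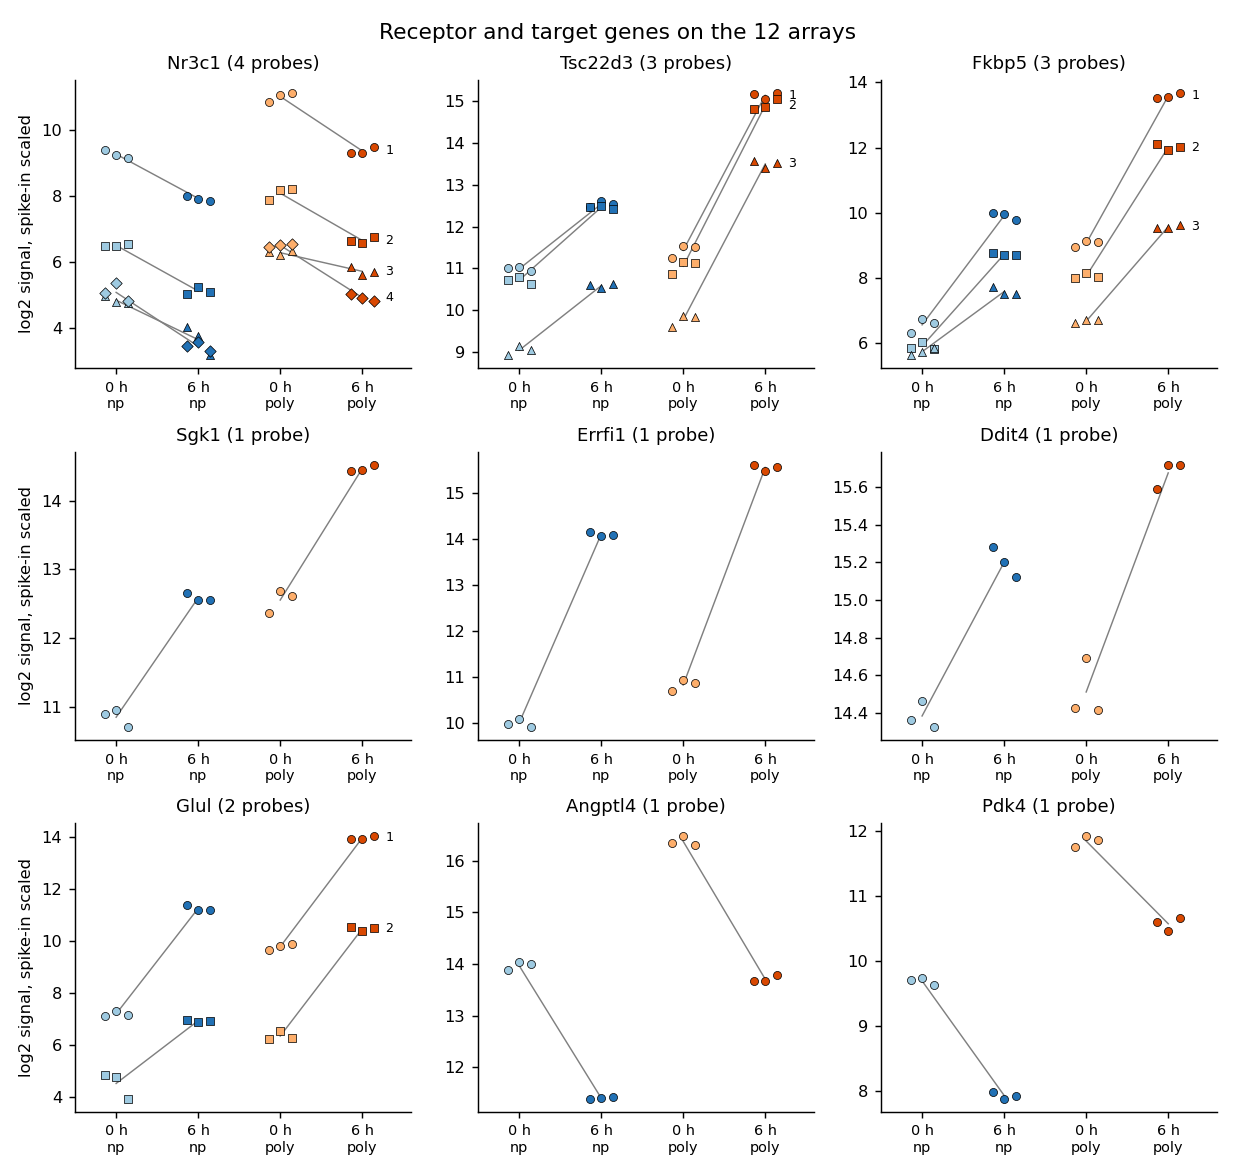
Log2 signal (spike-in scaled, vertical axis) of every member probe on the 12 arrays by group (np, non-polysomal; poly, polysomal), with 1 point per array, a line joining the means of 0 h and 6 h within a fraction, and numbers and symbols marking probes of 1 gene. Nr3c1, Angptl4 and Pdk4 are lower at 6 h in both fractions and the other 6 genes are higher.

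The receptor mRNA was lower at 6 h in both fractions. Nr3c1 probe 1 (accession NM_008173, as for the other 3 probes) read 10.86, 11.08 and 11.14 (log2 signal) in 0 h polysomal RNA and 9.32, 9.32 and 9.49 at 6 h. In non-polysomal RNA it read 9.40, 9.26 and 9.16 at 0 h and 8.0, 7.93 and 7.86 at 6 h. The 0 h arrays did not overlap with the 6 h arrays in either fraction. Polysomal Nr3c1 probe 1 fell by 1.65 on the log2 scale (SE 0.10, 3.14-fold, adjusted p = 3.08e-07) and non-polysomal by 1.34 (SE 0.10, 2.54-fold, adjusted p = 2.22e-06). The order of the groups was 0 h polysomal highest and 6 h non-polysomal lowest. The levels in between, 9.37 ± 0.10 in 6 h polysomal and 9.27 ± 0.12 in 0 h non-polysomal RNA (SD, n = 3), overlapped.

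The other Nr3c1 probes differed in brightness but mostly not in direction. Probe 2 fell by 1.43 in polysomal and by 1.38 in non-polysomal RNA, and probe 4 fell by 1.59 and by 1.64. Probe 3 changed by -0.57 (SE 0.18, adjusted p = 0.0204) in polysomal RNA, which is less than the limit of 1, and fell by 1.20 in non-polysomal RNA. Probe 3 was also the one member probe that was not well above background everywhere: in 6 h non-polysomal RNA it was so on 2 of 3 arrays, which read 4.01, 3.74 and 3.18. When each array was scaled by a line fitted to its spike-ins, the polysomal difference of probe 3 was 0.17, so its direction in polysomal RNA depends on the scaling. Its non-polysomal change was -0.96 without the third 6 h array.

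Tsc22d3 encodes GILZ, a leucine zipper protein that restrains inflammatory transcription factors. Its mRNA rose at 6 h much more in polysomal than in non-polysomal RNA. Tsc22d3 probe 1 (AF024519) read 11.00, 11.04 and 10.93 in 0 h non-polysomal RNA and 12.46, 12.62 and 12.53 at 6 h. In polysomal RNA it read 11.24, 11.53 and 11.51 at 0 h and 15.16, 15.06 and 15.19 at 6 h. The 4 groups did not overlap, and the 6 h polysomal arrays stood far above the rest. Polysomal Tsc22d3 rose by 3.70 (SE 0.09, 13.0-fold, adjusted p = 1.57e-09) and non-polysomal by 1.55 (SE 0.09, 2.92-fold, adjusted p = 5.01e-07). The other probes (both NM_001077364) rose by 3.85 and 3.73 in polysomal and by 1.74 and 1.54 in non-polysomal RNA.

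Fkbp5 encodes FKBP51, an Hsp90 cochaperone that lowers the receptor's affinity for ligand. Fkbp5 probe 1 (NM_010220, as for the other 2 probes) read 6.31, 6.74 and 6.60 in 0 h non-polysomal RNA and 9.98, 9.96 and 9.78 at 6 h. In polysomal RNA it read 8.93, 9.12 and 9.11 at 0 h and 13.51, 13.56 and 13.68 at 6 h. Every group stood apart from the others, in the order 0 h non-polysomal, 0 h polysomal, 6 h non-polysomal and 6 h polysomal. Polysomal Fkbp5 rose by 4.53 (SE 0.12, 23.1-fold, adjusted p = 1.89e-09) and non-polysomal by 3.36 (SE 0.12, 10.2-fold, adjusted p = 2e-08). Fkbp5 probes 2 and 3 rose by less, with 3.96 and 2.91 in polysomal and 2.82 and 1.85 in non-polysomal RNA.

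Errfi1, which encodes the EGF receptor inhibitor Mig6, showed the largest rise among the members. Errfi1 (NM_133753) read 10.68, 10.92 and 10.86 in 0 h polysomal RNA and 15.63, 15.50 and 15.57 at 6 h. In non-polysomal RNA it read 9.98, 10.08 and 9.91 at 0 h and 14.15, 14.07 and 14.09 at 6 h. It rose by 4.74 in polysomal (SE 0.08, 26.8-fold, adjusted p = 3.24e-10) and by 4.11 in non-polysomal RNA (SE 0.08, 17.3-fold, adjusted p = 1.21e-09). The order of its groups was that of Fkbp5, with no overlap.

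Sgk1 encodes a kinase that promotes sodium uptake and cell survival. Sgk1 (NM_011361) read 12.36, 12.69 and 12.61 in 0 h polysomal RNA and 14.43, 14.45 and 14.52 at 6 h. In non-polysomal RNA it read 10.89, 10.95 and 10.71 at 0 h and 12.66, 12.56 and 12.55 at 6 h. It rose by 1.91 in polysomal (SE 0.10, 3.76-fold, adjusted p = 1.05e-07) and by 1.74 in non-polysomal RNA (SE 0.10, 3.34-fold, adjusted p = 3.81e-07). Its levels in 0 h polysomal RNA (12.56 ± 0.17) and 6 h non-polysomal RNA (12.59 ± 0.06; SD, n = 3) overlapped. Sgk1 has several promoter windows, of which 1 holds the palindrome shown above and some hold no half-site. Whether the palindrome bears on the rise was not tested.

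Glul encodes glutamine synthetase, and its 2 probes (both NM_008131) agreed in polysomal RNA and differed in non-polysomal RNA. Glul probe 1 read 7.12, 7.30 and 7.13 in 0 h non-polysomal RNA and 11.37, 11.17 and 11.19 at 6 h. Glul probe 2 read 4.84, 4.76 and 3.92 in 0 h non-polysomal RNA and 6.96, 6.88 and 6.92 at 6 h. The third array of probe 2 lay below the other 2 at 0 h (SD 0.51). Probe 1 rose by 4.18 in polysomal (SE 0.09, 18.2-fold, adjusted p = 6.07e-10) and by 4.06 in non-polysomal RNA (SE 0.09, 16.7-fold, adjusted p = 1.83e-09). Probe 2 rose by 4.12 in polysomal (SE 0.21, 17.4-fold, adjusted p = 8.44e-08) and by 2.41 in non-polysomal RNA (SE 0.21, 5.33-fold, adjusted p = 5.95e-06).

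Ddit4, which encodes REDD1, an inhibitor of mTORC1, changed less than the other induced members. Ddit4 (NM_029083) read 14.43, 14.69 and 14.41 in 0 h polysomal RNA and 15.59, 15.72 and 15.72 at 6 h. In non-polysomal RNA it read 14.36, 14.46 and 14.33 at 0 h and 15.28, 15.20 and 15.12 at 6 h. It rose by 1.17 in polysomal RNA (SE 0.09, 2.24-fold, adjusted p = 2.28e-06). The non-polysomal difference was 0.82 (SE 0.09, adjusted p = 4.5e-05), below the limit of 1. Under quantile normalization the polysomal difference of Ddit4 was -0.03, so its direction there depends on the scaling.

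Angptl4 and Pdk4, which are counted among the dexamethasone-induced genes, were lower at 6 h. Angptl4 encodes a secreted inhibitor of lipoprotein lipase, and Pdk4 a kinase that shuts off pyruvate dehydrogenase. Angptl4 (NM_020581) read 16.34, 16.47 and 16.31 in 0 h polysomal RNA and 13.66, 13.68 and 13.78 at 6 h. In non-polysomal RNA it read 13.88, 14.03 and 13.999 at 0 h and 11.39, 11.40 and 11.41 at 6 h. Polysomal Angptl4 fell by 2.67 (SE 0.07, 6.37-fold, adjusted p = 2.37e-09) and non-polysomal by 2.57 (SE 0.07, 5.93-fold, adjusted p = 6.51e-09). These were the largest falls among the members.

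Pdk4 (NM_013743) read 11.75, 11.91 and 11.87 in 0 h polysomal RNA and 10.60, 10.45 and 10.66 at 6 h. In non-polysomal RNA it read 9.70, 9.74 and 9.63 at 0 h and 7.98, 7.88 and 7.92 at 6 h. Polysomal Pdk4 fell by 1.27 (SE 0.08, 2.42-fold, adjusted p = 3.7e-07) and non-polysomal by 1.76 (SE 0.08, 3.40-fold, adjusted p = 8.73e-08). The groups did not overlap for either gene.

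**Figure D2:**
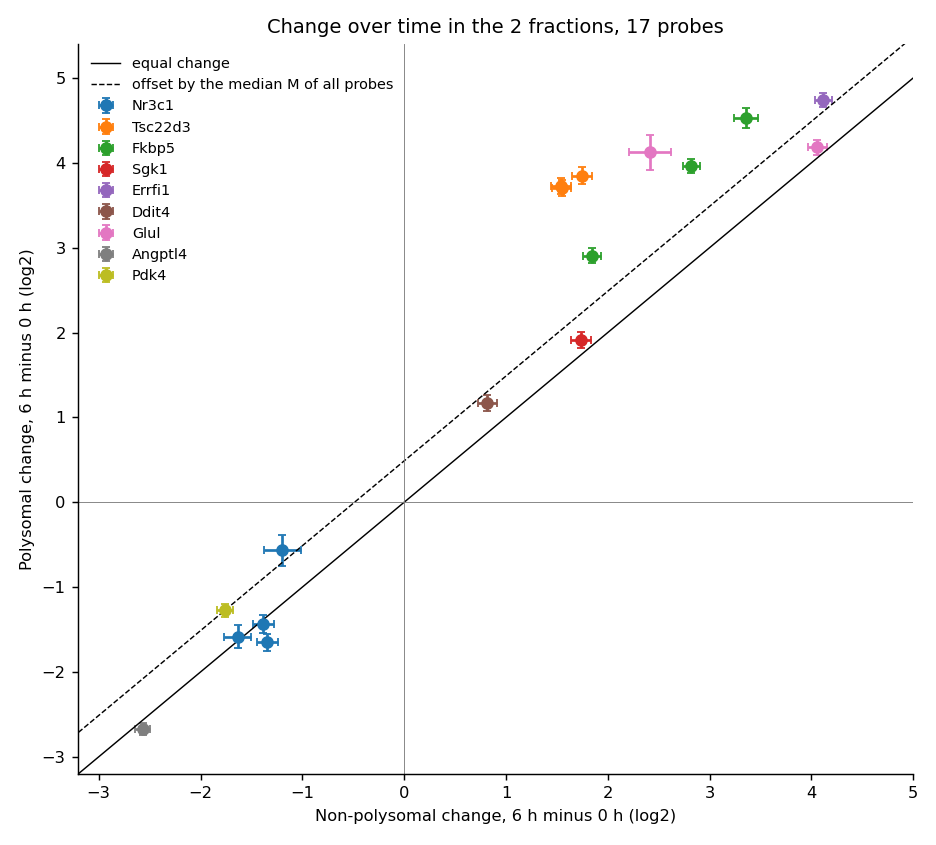
Change from 0 h to 6 h (log2) in polysomal RNA (vertical axis) against non-polysomal RNA (horizontal axis) for the 17 member probes, with bars of 1 SE, a full line of equal change and a dashed line offset by 0.49, the median M-value of all probes. The Tsc22d3 probes lie furthest above both lines, at polysomal changes of 3.70 to 3.85 and non-polysomal changes of 1.54 to 1.74.

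The second comparison asked whether the change over time differed between polysomal and non-polysomal RNA. It used the M-value, M = (p6 - np6) - (p0 - np0), which is the polysomal change minus the non-polysomal change. Levels refer to the RNA of each pool, so M does not give the share of an mRNA on polysomes. Of the member probes 7 had an M-value above 1 at an adjusted p below 0.05: the 3 of Tsc22d3, the 3 of Fkbp5 and Glul probe 2. In all probes 12.1% were called higher in this way and 1.31% lower. No member was called lower by limma, and none had a negative M-value at an unadjusted p below 0.05, where 11 had a positive one. Of all probes, 80.8% had an M-value above 0 at any p. The median M-value was 0.63 over the 17 member probes and 0.49 for all probes, so M-values are also given relative to 0.49. A gene with several probes counts more than once in the 0.63. With the probes of a gene averaged, the middle of the 9 genes was Pdk4, at 0.49.

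The M-values of Tsc22d3 stood well above the median of the array. They were 2.16 (SE 0.13, adjusted p = 3.85e-06), 2.10 (SE 0.14, adjusted p = 5.85e-06) and 2.19 (SE 0.13, adjusted p = 4.05e-06), or 1.62 to 1.70 above the median of all probes. On the 3 slides, each of which held 1 array of every group, probe 1 gave 2.45, 1.94 and 2.08. Under the 75th percentile, quantile and 5 brightest spike-in scalings the 3 probes ranged from 1.64 to 1.76. The study listed Tsc22d3 on these same arrays, in part for its M-value, so that value is not independent evidence of a change. The study also required lower non-polysomal signal after hormones, and less polysomal than non-polysomal signal before them. Here the 3 probes rose in non-polysomal RNA by 1.55, 1.74 and 1.54, and by at least 1.21 over all alternatives. Their polysomal minus non-polysomal differences before hormones were 0.44, 0.34 and 0.73. These turned negative (-0.55 to -0.16) by the 75th percentile and by quantiles. The reason for the mismatch was not tested.

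The M-values of Fkbp5 were 1.17 (SE 0.16, adjusted p = 0.000432), 1.14 (SE 0.12, adjusted p = 7.35e-05) and 1.06 (SE 0.12, adjusted p = 0.000156). They were 0.57 to 0.69 above the median of all probes. Their call above 1 rests on the scaling: by the 5 brightest spike-ins they were 0.72, 0.69 and 0.60, by the 75th percentile 0.75, 0.72 and 0.63, and by quantiles 0.50, 0.37 and 0.34. All of these kept the direction. Without replicate 3 of every group the M-value of Fkbp5 probe 3 was 0.95, and it was also just under 1 without the third 0 h non-polysomal array.

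Glul gave no common answer. Probe 1 had an M-value of 0.12 (SE 0.13, adjusted p = 0.449), below the median of all probes, and probe 2 one of 1.71 (SE 0.29, adjusted p = 0.00138). Probe 2 was the dimmer of the pair in non-polysomal RNA at 0 h, where its 3 arrays had the largest SD (0.51) of any member in any group. On the 3 slides it gave 2.16, 1.76 and 1.22.

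Errfi1 and Pdk4 had M-values that passed the test without reaching 1, which makes 9 of 17 member probes with a positive M-value at an adjusted p below 0.05, where 32.1% of all probes had a positive one and 3.98% a negative one. They were 0.63 (SE 0.12, adjusted p = 0.00228) for Errfi1 and 0.49 (SE 0.11, adjusted p = 0.00695) for Pdk4, or 0.14 and 0.003 above the median of all probes. By the 5 brightest spike-ins neither passed, with 0.18 (adjusted p = 0.56) and 0.04 (adjusted p = 0.952). Without replicate 3 neither passed (Errfi1 0.68, adjusted p = 0.0516; Pdk4 0.49, adjusted p = 0.098), and Pdk4 did not pass without replicate 1 (0.45, adjusted p = 0.0972). The M-values of the receptor itself did not pass the test, with -0.31 (adjusted p = 0.11), -0.05 (adjusted p = 0.803), 0.63 (adjusted p = 0.0803) and 0.05 (adjusted p = 0.846) for probes 1 to 4. Nor did those of Sgk1 (0.17, adjusted p = 0.336), Ddit4 (0.35, adjusted p = 0.0646) and Angptl4 (-0.10, adjusted p = 0.437).

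**Figure D3:**
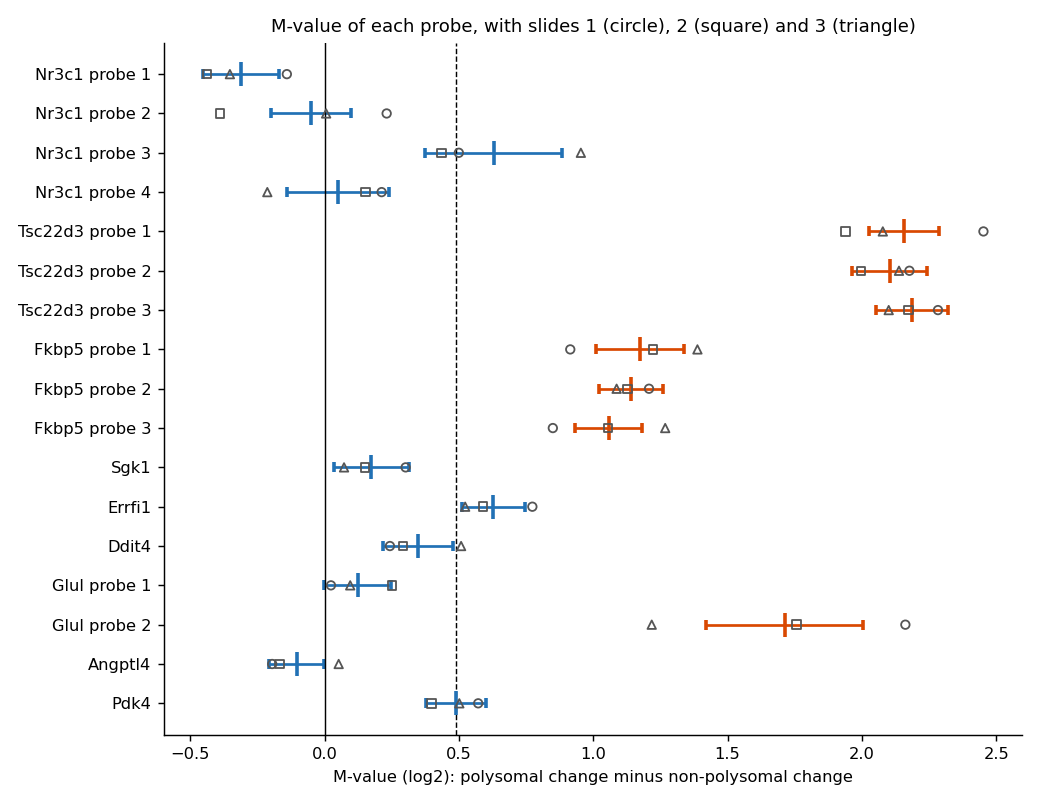
M-value (log2, horizontal axis) of each member probe, with the mean as a vertical mark, a bar of 1 SE, open symbols for the 3 slides and a dashed line at 0.49, the median of all probes; orange marks called probes. Tsc22d3 lies between 2.10 and 2.19, Fkbp5 between 1.06 and 1.17, and the 2 Glul probes at 0.12 and 1.71.

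The share of all called probes that were higher shifted with the scaling, which matters for how these values are read. For the M-value it was 90.2% with the 10 spike-ins, 48.5% with the 5 brightest, 51.9% with the 75th percentile and 44.6% with quantiles. For the polysomal change it was 79.3%, 52.9%, 46.8% and 45.5% in the same order, and 92.8% with the 5 dimmest. The median M-value of all probes was 0.03 with the 5 brightest spike-ins and 0.94 with the 5 dimmest. The number of member probes with a called M-value was 4 with the 5 brightest spike-ins and 9 with the 5 dimmest.

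**Figure D4:**
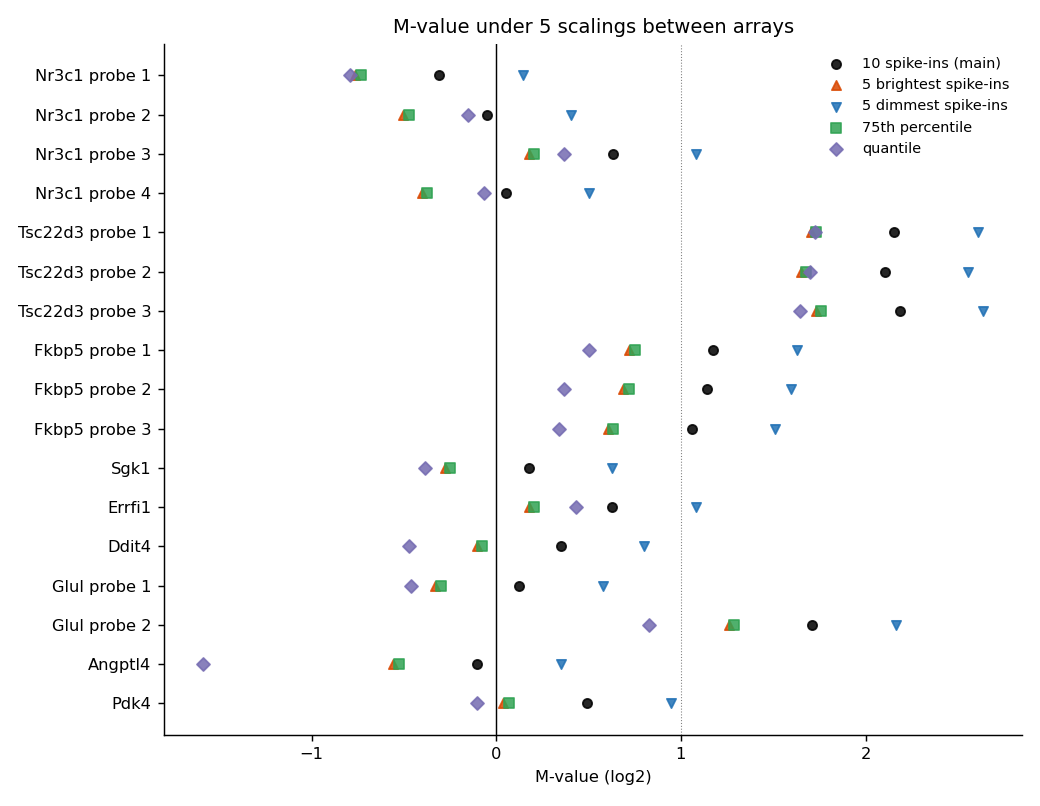
M-value (log2, horizontal axis) of each member probe under 5 scalings between the 12 arrays, with a dotted line at the limit of 1. Under each scaling Tsc22d3 lies above 1.6, while the Fkbp5 probes lie above 1 with the 10 spike-ins (1.06 to 1.17) and with the 5 dimmest, and below 1 with the other 3.

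The third comparison set polysomal against non-polysomal RNA at each time. At 0 h 11 member probes were higher in polysomal RNA and none was lower, where 27.4% of all probes were higher and 9.81% lower. At an unadjusted p below 0.05, 16 were higher and none lower in limma's test. Of all probes, 66.1% had a difference above 0 at any p. The 6 member probes that were not called were Tsc22d3 (0.44, 0.34 and 0.73), Fkbp5 probe 3 (0.94), Errfi1 (0.83) and Ddit4 (0.13, adjusted p = 0.317). The Tsc22d3 differences passed the test (adjusted p = 0.00193, 0.0145 and 6.5e-05) without reaching 1. Before hormones, Glul probe 1 (2.58), Fkbp5 probe 1 (2.50), Angptl4 (2.41) and Pdk4 (2.15) were 4.45 to 5.99 times higher per amount of RNA in the polysomal than in the non-polysomal pool. With the 75th percentile these 4 differences were 1.69, 1.61, 1.52 and 1.26. By the 75th percentile and by quantiles the Tsc22d3 differences turned to between -0.55 and -0.16.

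At 6 h 16 member probes were higher in polysomal RNA, where 37.4% of all probes were higher and 6.41% lower. No member was called lower by limma, and none had a negative difference at any p. The differences of Tsc22d3 were then 2.60, 2.44 and 2.91, or 6.06-fold, 5.43-fold and 7.52-fold. Over all alternatives their lowest values were 1.29, 1.13 and 1.47. The largest difference was that of Fkbp5 probe 1, with 3.68 (12.8-fold), and its lowest value over the alternatives was 2.22. The difference of Ddit4 was 0.48 (SE 0.09, adjusted p = 0.00117), below the limit of 1, and it was -0.84 by the 75th percentile and -0.48 by quantiles. The share of called probes that were higher was 73.6% at 0 h and 85.4% at 6 h with the 10 spike-ins, against 30.4% and 35.6% with the 75th percentile and 54.5% and 53.5% with quantiles.

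The genes around the receptor were read from fixed lists, by counts of probes. Receptor chaperones and cochaperones had 23 probes of 13 genes. In polysomal RNA 9 rose and none fell, where 19.2% of all probes rose and 5.01% fell. The median over the 23 probes was 0.71, against 0.54 over all probes. At an unadjusted p below 0.05, 19 were higher and none lower in limma's test. Of all probes, 78.5% had a polysomal change above 0 at any p. Hsp90aa1, which encodes an Hsp90 itself and is the first listed, changed by 0.61 (SE 0.09, adjusted p = 0.000153), but by -0.64 with quantile normalization. The highest change was that of Hspa8, the constitutive Hsp70, with 1.86 (SE 0.11), and the lowest called one that of Bag1, a nucleotide exchange factor, with 1.16 (SE 0.07). In non-polysomal RNA 2 probes rose (Ppid and Bag1) and 2 fell (both of Hsp90ab1), where 8.09% of all probes rose and 8.14% fell. These genes were named after their values were seen. The M-value was called higher for 7 probes, where 12.1% of all probes were. With quantile normalization none of the 23 rose in polysomal RNA, with the 75th percentile 5 did, and with the 5 dimmest spike-ins 14 did. The 7 called M-values became 4 with the 5 brightest and 12 with the 5 dimmest.

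Receptor coregulators had 27 probes of 13 genes. In polysomal RNA 4 rose and 7 fell, where 19.2% of all probes rose and 5.01% fell. In non-polysomal RNA 1 rose and 5 fell, where 8.09% of all probes rose and 8.14% fell. The first listed, Ncoa1, a coactivator of nuclear receptors, fell by 1.31 (SE 0.08, adjusted p = 5.08e-07). The lowest change was that of Ppargc1a, the coactivator PGC-1alpha, which fell by 4.10 and by 2.65 on its 2 probes, and by 3.98 and 2.65 in non-polysomal RNA. The highest was that of Hdac2, a histone deacetylase, with 1.36 (SE 0.19), which was also the 1 probe of this list with a called M-value (2.18, adjusted p = 0.000227). With the 75th percentile, quantiles or the 5 brightest spike-ins none rose and 11 fell in polysomal RNA, and with the 5 dimmest spike-ins or a line fitted to the spike-ins 6 rose and 2 fell. The balance of rises and falls in this list therefore depends on the scaling.

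Genes that handle the ligand had 11 probes of 6 genes. Hsd11b1, the enzyme that regenerates active glucocorticoid, is the first listed and changed by 0.97 in polysomal RNA (SE 0.21, adjusted p = 0.00286), just below the limit. In polysomal RNA 2 of 11 probes passed it, a share near the 19.2% of all probes that rose. None rose with the 5 brightest spike-ins, the 75th percentile, quantiles or the deposited values, and 4 did with the 5 dimmest spike-ins. The 2 were 1 of the 3 probes of Abcb1b, a drug efflux pump, with 1.02 (SE 0.08), and Hsd11b2, which was not well above background on any array and so has no fold. In non-polysomal RNA limma called none, and 2 probes were higher and 1 lower at an unadjusted p below 0.05.

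Other genes known to be induced by glucocorticoids had 46 probes of 32 of the 34 listed genes. In polysomal RNA 21 rose and 9 fell, where 19.2% of all probes rose and 5.01% fell. In non-polysomal RNA 18 rose and 11 fell, where 8.09% of all probes rose and 8.14% fell. This list, like the members and the array as a whole, held probes that rose and probes that fell. With the 5 dimmest spike-ins 24 rose and 3 fell in polysomal RNA, and with the 5 brightest 20 rose and 12 fell. The first listed, Per1, a circadian repressor, rose by 2.14 (SE 0.09) in polysomal and by 1.19 in non-polysomal RNA. Among the rises, Dusp1, a phosphatase of MAP kinases, rose by 4.75 (SE 0.07) and by 4.20, and Mt2, a metallothionein, by 4.74 (SE 0.09) and by 1.86; both were chosen after their values were seen. The lowest change was that of Trim63, a muscle ubiquitin ligase, which was not well above background at 6 h and was at least 8.39-fold lower than at 0 h in polysomal RNA. The fold of Trim63 is a bound, set against the lowest signal well above background on each array.

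Genes known to be repressed by glucocorticoids had 18 probes of 14 of the 15 listed genes. In polysomal RNA 7 rose and none fell, where 19.2% of all probes rose and 5.01% fell. In non-polysomal RNA 6 rose and none fell, where 8.09% of all probes rose and 8.14% fell. At an unadjusted p below 0.05, 1 probe was lower in each by limma's test. With quantiles 5 rose in polysomal RNA, and with a line fitted to the spike-ins 12 did. The M-value was called higher for 4 probes, where 12.1% of all probes were. With the 75th percentile, quantiles or the 5 brightest spike-ins 1 was called higher and 2 lower. The first listed, Il6, a cytokine, rose by 3.13 (SE 0.14) in polysomal and by 1.44 in non-polysomal RNA. The highest was Il11, another cytokine of the same family, with 6.77 (SE 0.13, adjusted p = 4.41e-10) and 5.49. The lowest called was 1 of 2 probes of Vcam1, an adhesion molecule, with 1.59 (SE 0.08), where the other probe changed by 0.19 (SE 0.14).

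Paralogues of the members had 22 probes of 12 of the 13 listed genes, and the mineralocorticoid receptor Nr3c2, Fkbp4 and Tsc22d1 are shared with the lists above. In polysomal RNA 3 rose and none fell, in non-polysomal RNA 2 rose and 1 fell, and 1 had a called M-value. These are below or near the shares of all probes that were called higher, 19.2%, 8.09% and 12.1%. With the 5 dimmest spike-ins 9 rose in polysomal RNA and 8 had a called M-value. In polysomal RNA at an unadjusted p below 0.05, 16 were higher and none lower in limma's test. Most of the array leaned the same way, with 78.5% of all probes above 0 at any p. Tsc22d1, a paralogue of Tsc22d3, rose by 2.77 (SE 0.09) in polysomal and by 2.09 in non-polysomal RNA, with an M-value of 0.69 (adjusted p = 0.00167). Tsc22d4 rose by 1.47 (SE 0.09) on 1 of its 2 probes, and the other changed by 0.21 (SE 0.08, adjusted p = 0.0489). The first listed, Nr3c2, was well above background on 1 of 3 probes, which changed by 0.85 (SE 0.15, adjusted p = 0.000613) in polysomal RNA. Of these lists, the median M-values were 0.55 for chaperones, 0.05 for coregulators, 0.52 for ligand handling, 0.47 for induced genes, 0.35 for repressed genes and 0.52 for paralogues, against 0.49 for all probes.

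**Figure D5:**
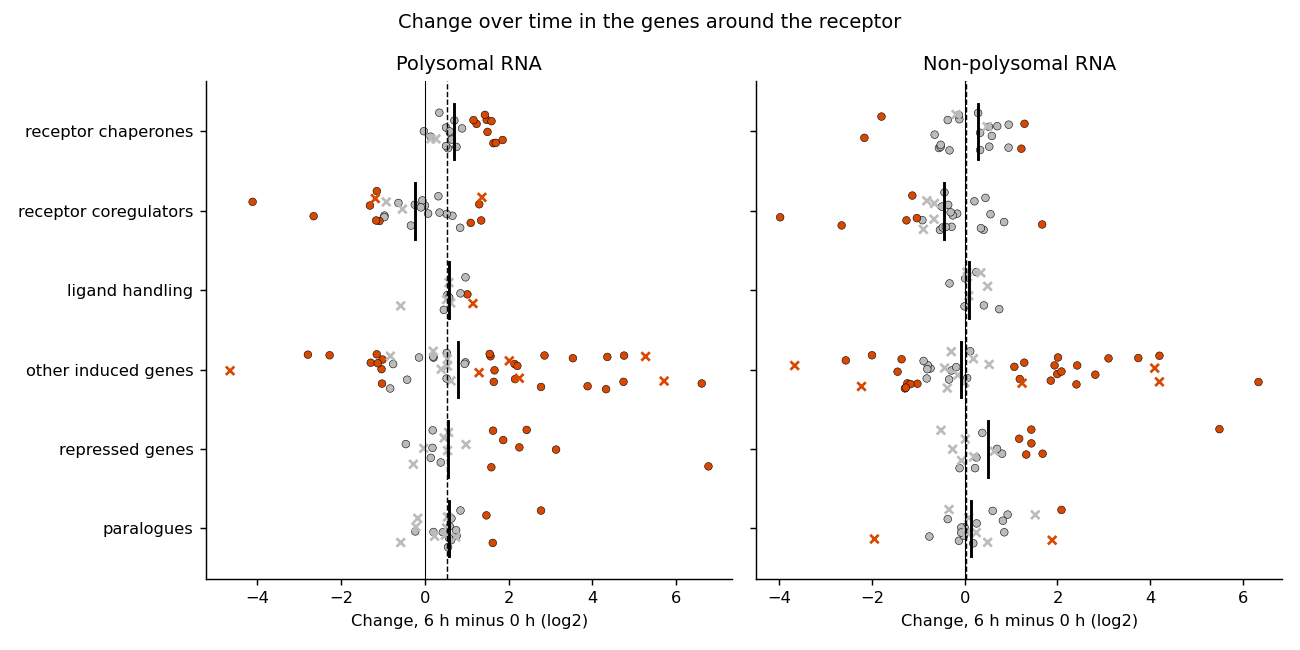
Change from 0 h to 6 h (log2, horizontal axes) of the probes of 6 lists in polysomal and non-polysomal RNA, with orange for called probes, crosses for probes not well above background on all 12 arrays, a bar for each list's median and a dashed line for the median of all probes (0.54 and 0.04). Induced genes spread widely on both sides of 0. In polysomal RNA 21 of their probes rose and 9 fell, where 19.2% of all probes rose and 5.01% fell.

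Across the 12 arrays the members fell into patterns that follow the groups they share, so the correlations describe these groups and are not tested. Angptl4 and Pdk4 ran with Nr3c1 probe 1 (Pearson's r = 0.991 and 0.968), and Fkbp5 probe 1 ran with Sgk1 (r = 0.988), Glul probe 1 (r = 0.990) and Tsc22d3 probe 1 (r = 0.964). Among 16581 probes compared, the patterns most like that of Nr3c1 probe 1 were those of Dnajc28, Ift81 and Wdr90 (r = 0.998 to 0.999). For Tsc22d3 probe 1 they were Socs3, Rnf149 and Cox5a (r = 0.998), and for Fkbp5 probe 1 Coq8b, Srprb and Tsku (r = 0.999).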

How the data were processed

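RNA of 12 samples was hybridised to one-color (Cy3) arrays. Per the file headers, the deposited Agilent Feature Extraction scans hold spot intensity values, and the processed signal had its background removed and its spatial trend corrected, with no scaling between arrays. The authors also deposited log2 values per probe that they had normalised to the spike-ins, used here as an alternative. The processed signal was used: control and outlier spots were left out, spots of a probe were averaged on the log2 scale, and the mean of 10 spike-in transcripts was subtracted from each array. Group means were fitted with limma (version 3.58.1, R 4.3.3) on all 41174 probes with 1 spread for all 4 groups, and p-values were adjusted by Benjamini-Hochberg over all probes; up to 19 of them had no value in a comparison. Figures were drawn with matplotlib.

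Probes were named through their transcript accession in RefSeq, and AF024519 through the pairing in the study. The members, the lists and the tests were chosen with earlier results of these data known. For each list the first listed gene and those with the highest and the lowest called change were named, except 1 gene that is not reported here. Cell type markers were checked for preadipocytes, adipocytes, macrophages, epithelium and endothelium. The number of arrays limits the precision. Scripts were tested on simulated data. Samples with the same replicate number lay on 1 slide. Their deviations from the group means correlated between -0.05 and 0.147 over 18 pairs (median 0.03). Over the 36 pairs of unlike number the range was -0.14 to 0.095 (median -0.02). The number was not taken as a pairing in the main fit, and a fit with it as a block was an alternative. These correlations cannot show whether pools of 1 number came from 1 lysate. Alternatives were other scalings, background corrections, filters and models and leaving out replicates. The normexp alternative used the median signal, since the files used here hold no mean signal.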

Additional observations from a re-analysis of the deposited data

Results flagged for a closer look

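For 9 member probes the change from 0 h to 6 h differed between polysomal and non-polysomal RNA by limma's test of the difference itself, at an adjusted p below 0.05. All 9 differences were positive, and 32.1% of all probes had a positive one at the same threshold. The differences (polysomal minus non-polysomal change, log2) were 2.16, 2.10 and 2.19 for Tsc22d3 probes 1, 2 and 3, and 1.17, 1.14 and 1.06 for Fkbp5 probes 1, 2 and 3. They were 1.71 for Glul probe 2, 0.63 for Errfi1 and 0.49 for Pdk4. The median difference of all probes was 0.49, so that of Pdk4 is that of a typical probe of the array. In all 9 the polysomal change was the higher one on each of the 3 slides. The 9 were picked for this difference on the same arrays, so the slides are no separate support.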

How the results depend on the processing

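The counts of member probes called were 16 for the polysomal change, 16 for the non-polysomal change, 7 for the M-value, and 11 at 0 h and 16 at 6 h for the difference between fractions. With the replicate block these counts were again 16, 16, 7, 11 and 16. Without any 1 replicate or array the counts were 16 for the polysomal change, 15 to 16 for the non-polysomal change, 6 to 7 for the M-value, and 11 and 16 for the fractions. With the 75th percentile the M-value count was 4 and the fraction counts 5 and 8, and with quantiles these were 4, 7 and 9. With the 5 brightest spike-ins, chosen after seeing the data like the 5 dimmest, the M-value count was 4. Averaging the probes of a gene gave 9, 8, 2, 6 and 8 of 9 genes.

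Normexp over all spots gave counts of 8 for the non-polysomal change, 1 for the M-value and 3 for the 0 h fractions. There the polysomal change of Nr3c1 was 0.40, 1.49 and 1.14 for probes 2, 3 and 4, and the 0 h fraction difference -0.45 and -0.31 for Nr3c1 probes 3 and 4, -0.47 for Fkbp5 probe 3 and -0.28 for Glul probe 2. On 3 arrays this fit was set by spots of extreme background, which put the array's median log2 signal at 8.20 to 10.1 against 6.31 to 6.49 on the others; with non-uniform background spots removed, a setting chosen after seeing the data, it was 6.31 to 6.49 on all 12.

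Directions that turned with the scaling were the polysomal change of Nr3c1 probe 3 (0.17, straight line through the spike-ins) and of Ddit4 (-0.030, quantiles) and the M-value of Pdk4 (-0.10, quantiles). The 0 h fraction difference of Tsc22d3 was -0.45, -0.55 and -0.16 with the 75th percentile and -0.37, -0.52 and -0.17 with quantiles, and that of Errfi1 -0.0597 and -0.0273. The 6 h fraction difference of Ddit4 was -0.84 and -0.48 in the same order. The share of called probes that were higher was 97.1% for the polysomal change with the line through the spike-ins, and 61.0% for the non-polysomal change with normexp after the removal. The causes of the other moves were not tested.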
